A study of Mus musculus with 2 samples.

Results

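Translation initiation factor genes were taken as the autosomal protein-coding genes of GENCODE vM21 whose symbols consist of Eif, a number and any further letters or digits. The rule gave 52 of the 20807 autosomal protein-coding genes. A member was counted as bound when the summit of a deposited Myb peak lay within 3 kb of the start of any of its annotated transcripts, and such a peak is called a promoter peak below. In all, 88 of the 25793 deposited peaks were promoter peaks of these genes. The study asked which genes Myb binds in normal mouse blood progenitors, as a reference for the expression changes that follow the loss of the acetyltransferase p300 in cells without Tet2. For ChIP-Seq, mature lineages were removed from the bone marrow of WT mice, and the remaining Lin- cells, which include the blood stem cells and progenitors, were precipitated with an antibody against Myb or with normal rabbit IgG; the labels give the purity of the Lin- fraction only as a minimum. There was 1 Myb library and 1 IgG library, and IgG served the authors as the background for peak calling. Both were labeled WT, and the labels name no treatment. The paper's methods use WT for mice with floxed p300 alleles and without Cre, and list them among the mice injected with poly(I:C). Its section on the Myb ChIP-Seq does not say whether these cells came from injected mice, and an effect of poly(I:C) was not tested. Neither library was replicated, so the spread between mice is unknown. The cell type named in the labels was not checked here, since no gene expression was measured in these samples.

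Translation initiation assembles a ribosome at the start codon of an mRNA. The factor eIF2 brings the initiator tRNA to the small ribosomal subunit, eIF3 and the eIF1 family hold that subunit ready for scanning, eIF4F loads it onto the capped mRNA, and eIF5 and eIF5B let the large subunit join. Myb is a DNA-binding transcription factor required for blood formation in the adult, and growing progenitors need a high capacity for protein synthesis.

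The Myb motif was searched on either strand in its forms starting with C, which are CAACGG along with CAACTG, and its forms starting with T, which are TAACGG along with TAACTG, within 50 bp of a summit. Among the strongest promoter peaks of the members, 8 of 41 held these letters (19.5%, exact 95% interval 8.82 to 34.9), compared with 8.54% of the windows of the same length centered 500 bp to either side. Over the 7435 strongest promoter peaks of all bound genes, 14.7% of the summit windows and 10.3% of the flanking windows held them. The order of members and all bound genes was not stable, since it turned where the −log10 q-value had to reach 5 (11.1% against 16.7%) and in windows of 100 bp to either side (26.8% against 27.2%). The windows shown here are those of 7 members with the letters and of the pair with the highest fold enrichment, Eif1ad and Eif4a2, which lacked them. All are on the plus strand of mm10 (GRCm38), and capitals mark the motif, which reads CAGTTA or CAGTTG where it lies on the minus strand. The windows of Eif3b (chr5:140418913-140419013), Eif3k (chr7:28981890-28981990), Eif4e2 (chr1:87216803-87216903), Eif2ak2 (chr17:78882681-78882781) and Eif2d (chr1:131153027-131153127) are given over 101 bases. The peaks of Eif4e2, Eif2ak2 and Eif2d, which are among the 8 with the letters, had q-values above 0.05 (−log10 q-values of 1.26, 1.21 and 0.856). For Eif5b (chr1:37996527-37996556), Eif4g2 (chr7:111072625-111072654), Eif1ad (chr19:5366762-5366791) and Eif4a2 (chr16:23107577-23107606), whose summits lie in annotated untranslated exons, 30 bases are given.
Eif3b: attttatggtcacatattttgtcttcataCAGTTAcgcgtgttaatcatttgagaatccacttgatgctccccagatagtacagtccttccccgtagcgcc
Eif3k: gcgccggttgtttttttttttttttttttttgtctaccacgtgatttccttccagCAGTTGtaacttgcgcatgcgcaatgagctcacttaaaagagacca
Eif4e2: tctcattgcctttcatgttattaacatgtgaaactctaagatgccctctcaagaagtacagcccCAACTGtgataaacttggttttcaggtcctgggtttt
Eif2ak2: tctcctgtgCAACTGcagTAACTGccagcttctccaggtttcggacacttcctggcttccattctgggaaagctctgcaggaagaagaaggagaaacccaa
Eif2d: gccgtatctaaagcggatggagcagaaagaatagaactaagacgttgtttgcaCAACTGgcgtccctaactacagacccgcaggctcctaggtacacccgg
Eif5b: atttaaaaactcCAACTGtcagcttctcat
Eif4g2: ttaggtcaaatgCAGTTAcatcatagcaac
Eif1ad: cgggggtcgctgttttccggttcctctcaa
Eif4a2: ctgtaataccaagtaatagtgaaatgtgga

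The motif lay 3 bp from the summit at Eif2d, 5 bp at Eif3k, 10 bp at Eif4g2, 14 bp at Eif4e2 and 16 bp at Eif3b. At Eif2ak2, 2 copies lay 27 and 36 bp away. At Eif5b, 2 copies lay 5 and 18 bp away, and the shorter stretch shown holds the nearer of them. The Eif3k window also held the E-box CACGTG, the element read by Myc and its relatives, and GCATGCGC, a form of the NRF1 element. The motif letters describe the sequence under the summit and do not by themselves mark a bound site.

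Myb peaks were found at the promoters of 41 of the 52 initiation factor genes (78.8%, exact 95% interval 65.3 to 88.9), while 41.4% of all autosomal protein-coding genes had such a peak. The bound genes spanned every step of initiation. They included both autosomal subunits of eIF2, 4 of 5 subunits of its exchange factor eIF2B, 11 of 14 eIF3 genes, 9 of 11 genes of eIF4F and its cofactors, and both factors of subunit joining. The 11 genes with no promoter peak were Eif1b, Eif2b2, Eif2ak3, Eif2ak4, Eif3l, Eif3m, Eif3j2, Eif4e1b, Eif4e3, Eif4ebp3 and Eif5a2. Intervals on shares and on reads cover counting error only, since reads copied by PCR were not marked by molecular identifiers and neighboring peaks are not independent.

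The promoters of these genes were of a kind that carried Myb peaks more often in general. A CpG-rich promoter, defined as a CpG ratio of observed to expected of at least 0.6 and a GC content of at least 50% in the 1 kb around the 5′ end of the gene, was present in 45 of the 52 members (86.5%) and in 45.7% of all genes. Among CpG-rich promoters, 37 of 45 members were bound (82.2%, interval 67.9 to 92.0) against 65.0% of all genes of that kind. Of the 7 members without a CpG-rich promoter, 4 were bound (57.1%, interval 18.4 to 90.1) against 21.6% of the comparable genes. The bound members of that smaller set were Eif2d, Eif2ak2, Eif4g1 and Eif5a. The members also offered slightly more sequence to the rule, with a median promoter window of 10800 bp per gene against 9140 bp over all genes, and a median of 4.5 annotated starts against 3. The part of window length in the share was not tested.

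Stricter rules kept the share of bound members above that of all genes, but were not compared with genes with a CpG-rich promoter. At a q-value no higher than 0.05, as the methods specify, 37 members were bound (71.2%) against 39.9% of all genes. At a −log10 q-value of 5 or more, 27 were bound (51.9%) against 25.3%. With the window narrowed to 1 kb, 40 were bound (76.9%) against 37.2%. The rule of 3 kb left no member close to its edge: the bound gene whose nearest summit lay farthest away was Eif2b5 at 1914 bp, followed by Eif2ak1 at 539 bp, and the nearest summit to an unbound member lay 5172 bp from Eif3m.

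**Figure D1:**
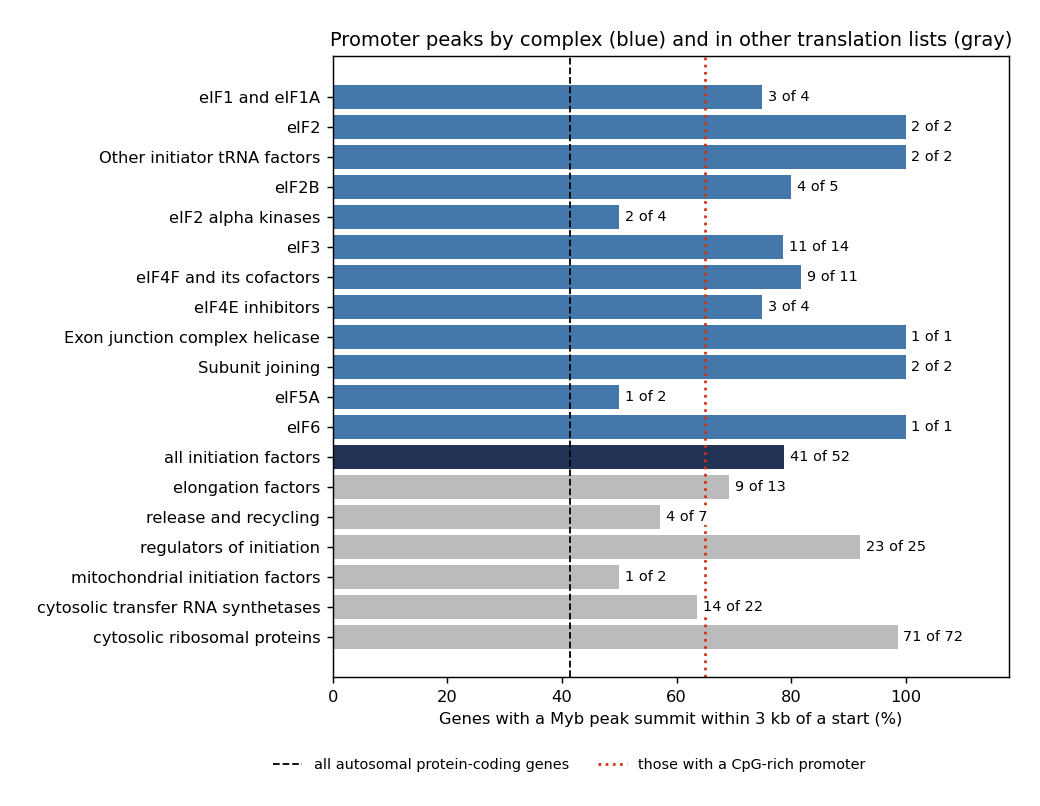
Share of genes with a Myb peak summit within 3 kb of a transcript start (x axis, percent), for each complex of initiation factors (blue), all 52 members together (dark blue) and other lists of translation genes (gray), with the number of genes bound beside each bar. The dashed line marks all autosomal protein-coding genes (41.4%) and the dotted line those with a CpG-rich promoter (65.0%); the eIF2 alpha kinases and eIF5A, at 50%, were the only complexes of initiation factors below the dotted line.

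The peaks at the members were as strong as those at other bound genes. Fold enrichment over IgG of the strongest promoter peak ran from 2.48 to 12.8 over the 41 members around a median of 5.25 (quartiles 3.90 and 6.49). Over all 8616 bound genes the median was also 5.25 (quartiles 4.18 and 6.86). The reads at the summit, derived from fold enrichment and the p-value, had a median of 22 in both sets. The lower end held more members, since the q-value of the strongest peak was above 0.05 in 5 of 41 members (12.2%, interval 4.08 to 26.2) and in 3.83% of all bound genes. These 5 were Eif2b3, Eif2ak2, Eif3i, Eif4e2 and Eif2d. Of them, Eif4e2 had a further promoter peak, lower in fold enrichment, with a q-value below 0.05. Most summits lay near a start, with a median distance of 141 bp against 247 bp over all bound genes, and 30 of 41 (73.2%) within 500 bp against 65.8%. They were divided between both sides of the start, with 22 downstream and 19 upstream.

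**Figure D2:**
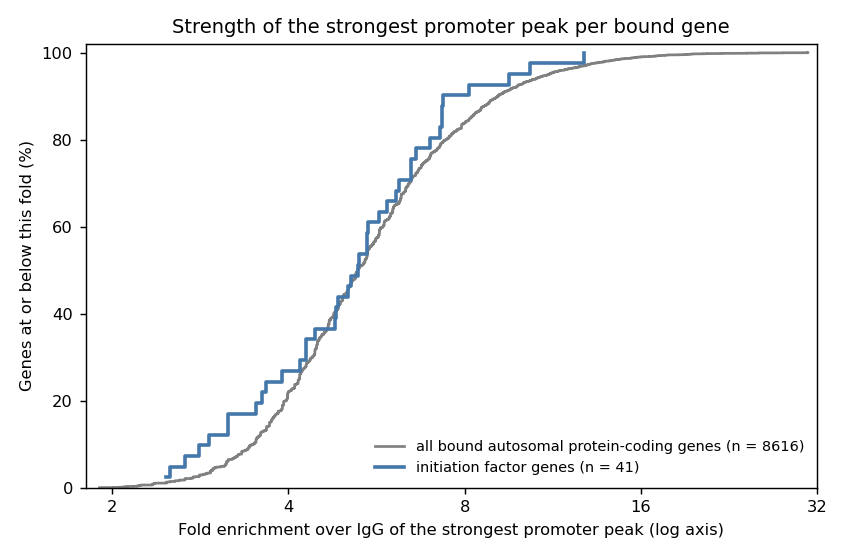
Cumulative share of bound genes (y axis, percent) at or below each fold enrichment of the strongest promoter peak (x axis, log scale), for the 41 bound initiation factor genes (blue) and all 8616 bound autosomal protein-coding genes (gray). The curves run close together around the shared median of 5.25, the members lie above the gray curve at low fold, and none exceeds 12.8 where the highest gene reaches 30.9.

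Counting error limited the ranking of the members. Eif1ad had the highest fold enrichment, at 12.8, and the fold intervals of 7 of the other 40 bound members overlapped its own. By reads, which carry no correction for the local background, 13 of 40 overlapped it. The fold intervals hold the local background fixed and leave out its own counting error, so they are too narrow. The order given below within a complex is therefore a ranking of estimates, and the fold intervals of neighbors in it overlapped, except between Eif4ebp1 and Eif4ebp2.

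**Figure D3:**
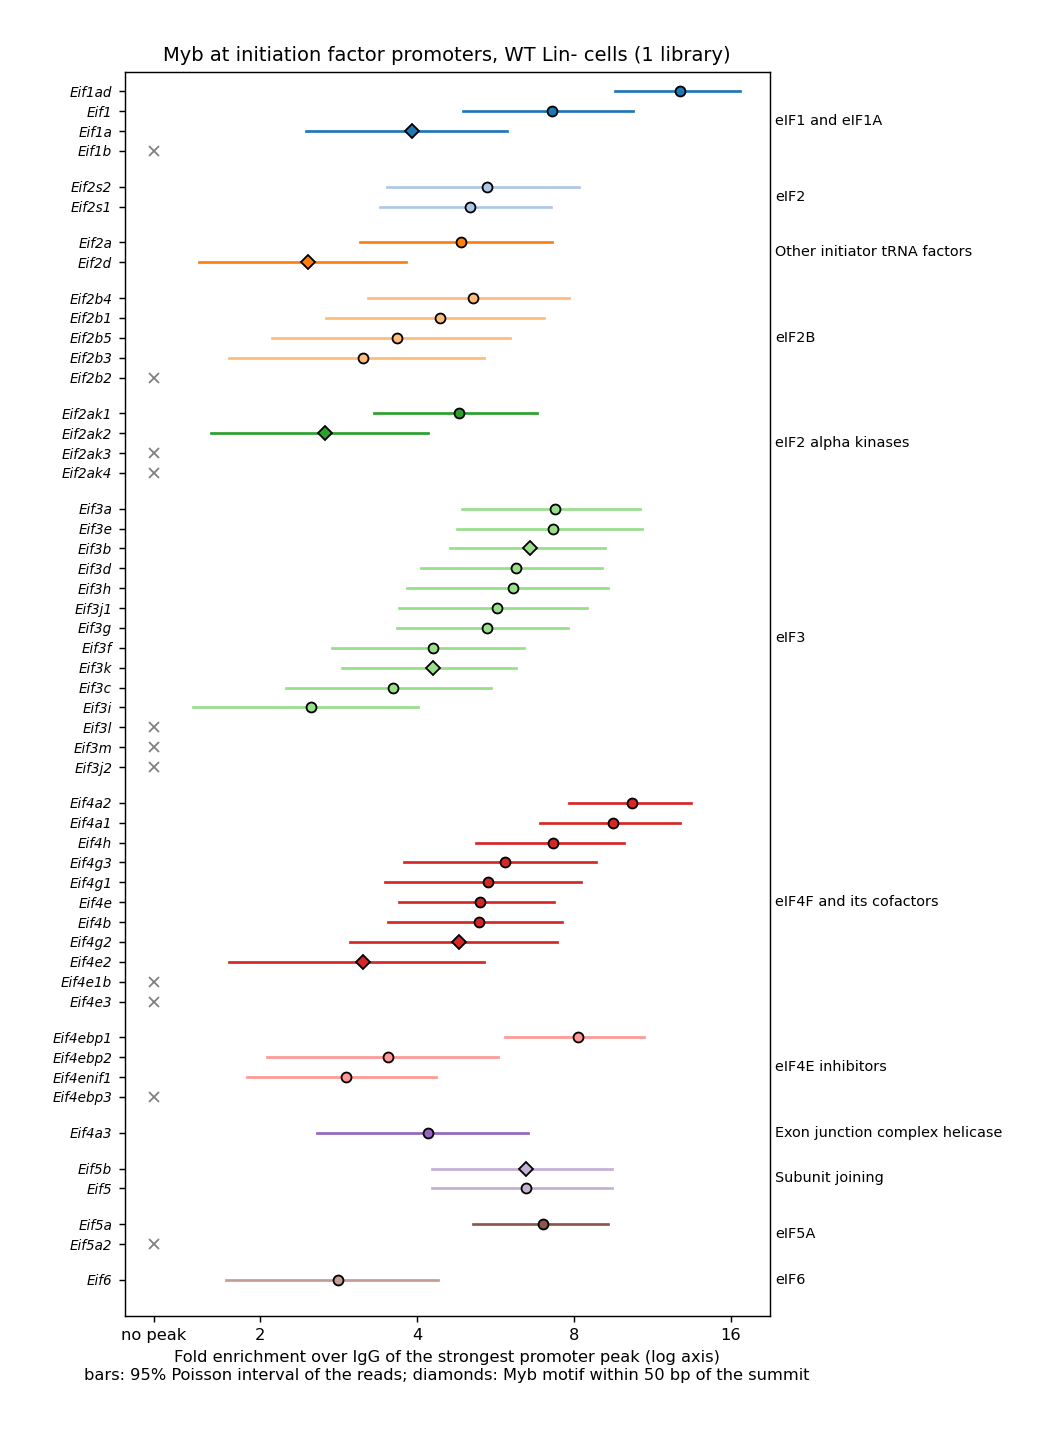
Fold enrichment over IgG of the strongest promoter peak of each initiation factor gene (x axis, log scale), grouped by complex, with the exact Poisson 95% interval of the reads as bars, diamonds for summits with the Myb motif within 50 bp and crosses for the 11 genes with no promoter peak. Eif1ad, Eif4a2 and Eif4a1 have the highest values, at 12.8, 10.3 and 9.51, and most other intervals overlap within a complex.

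The factors eIF1 and eIF1A act on the small subunit during scanning for the start codon. In the group of their genes and Eif1ad, 3 of 4 were bound, and fold enrichment ranged from 3.90 to 12.8. Eif1ad encodes a protein with an eIF1A-like domain, and a role of it in scanning was not tested. Its peak (chr19:5366453-5367773) held 51 reads at the summit (interval 38.0 to 67.1) with a −log10 q-value of 31.0. The summit lay 36 bp downstream of the start of Eif1ad and 14 bp from that of its neighbor Banf1, in an untranslated exon of both genes, so the peak cannot be ascribed to Eif1ad alone. Eif1, which guards the choice of start codon, had 4 promoter peaks. The strongest (chr11:100320151-100321333) reached 7.26-fold with 27 reads (interval 17.8 to 39.3) and a −log10 q-value of 10.8, and its summit lay 65 bp upstream of the nearest start. The peak of Eif1a (chr18:46597585-46598793) had 3.90-fold enrichment, 19 reads (interval 11.4 to 29.7) and a −log10 q-value of 3.47, and its summit, 13 bp downstream of the start, had the Myb motif within 50 bp. Eif1b, a close paralog of Eif1, had a CpG-rich promoter and no promoter peak, and its nearest summit lay 76606 bp away.

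Both autosomal subunits of eIF2, the GTPase that delivers the initiator tRNA, were bound at near equal strength. Eif2s2, the beta subunit, had 5.46-fold enrichment (chr2:154891540-154892554) with 21 reads (interval 13 to 32.1), a −log10 q-value of 6.72 and a summit 455 bp downstream of a start. Eif2s1, the alpha subunit on which stress kinases act, had 5.05-fold enrichment (chr12:78860936-78862347) with 27 reads (interval 17.8 to 39.3), a −log10 q-value of 7.05 and a summit 33 bp downstream. The read intervals overlapped, and neither summit held the motif. Outside eIF2, Eif2a encodes a separate factor that can bind initiator tRNA, and Eif2d acts in reinitiation and recycling. Eif2a had 4.85-fold enrichment (chr3:58525762-58526332) with 21 reads (interval 13 to 32.1), a −log10 q-value of 5.74 and a summit 55 bp downstream of the start. Eif2d had the lowest fold enrichment of all bound members, 2.48, with 18 reads before scaling against a local background of 5 in scaled reads. Its −log10 q-value was 0.856, and it held the motif shown above.

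For eIF2B, the factor that exchanges GDP for GTP on eIF2, 4 of 5 genes were bound with a median of 4.05-fold. None of the 4 summits had the motif, and 1 of the 4 genes, Eif2b4, passed a −log10 q-value of 5. Eif2b4, a regulatory subunit, had 5.12-fold enrichment (chr5:31193869-31194676) with 19 reads (interval 11.4 to 29.7) and a −log10 q-value of 5.34. That summit lay 629 bp upstream of Eif2b4 and 205 bp from the start of Snx17, inside an intron of Snx17, and a further peak of 5.06-fold lay 54 bp from the start of Eif2b4 itself. Eif2b1, the regulatory alpha subunit, had 4.44-fold enrichment (chr5:124578625-124579616) with 16 reads (interval 9.14 to 26.0), a −log10 q-value of 3.91 and a summit 81 bp downstream of the start. Eif2b5, the subunit with the exchange activity, had 3.67-fold enrichment (chr16:20496686-20497053) with 13 reads (interval 6.92 to 22.2), a −log10 q-value of 2.51 and a summit 1914 bp upstream of the gene. Eif2b3, its catalytic partner, had 3.15-fold with 11 reads and a −log10 q-value of 1.26. The regulatory subunit gene Eif2b2 had no promoter peak, and its nearest summit lay 26429 bp away.

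The kinases that phosphorylate eIF2 alpha, and thereby shut down most initiation under stress, were bound in 2 of 4 cases. Eif2ak1 encodes HRI, which responds to heme shortage and acts in red cell precursors. It had 4.82-fold enrichment (chr5:143817808-143819462) with 30 reads (interval 20.2 to 42.8) and a −log10 q-value of 7.82, at a summit 1240 bp downstream of the start in an intron. Eif2ak2, which encodes PKR, had 2.66-fold enrichment with 16 reads before scaling against a local background of 4 in scaled reads. Its −log10 q-value was 1.21, and it held the 2 motif copies shown above. PERK (Eif2ak3), which responds to unfolded proteins, and GCN2 (Eif2ak4), which responds to amino acid shortage, had no promoter peak although both promoters were CpG-rich. Their nearest summits lay 38465 and 33771 bp away.

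eIF3, the largest initiation factor, had promoter peaks at 11 of 14 genes, with a median of 5.70-fold and a range from 2.51 to 7.34. All 3 genes of the b-g-i module were bound, as were 6 of the 8 genes of the octamer core and 2 of the 3 genes of peripheral subunits. Eif3a, the largest scaffold subunit, had 7.34-fold enrichment over a broad peak of 2727 bp (chr19:60788771-60791497), with 25 reads (interval 16.2 to 36.9), a −log10 q-value of 10.8 and a summit 147 bp upstream of the start. Eif3e, another core subunit, had 7.30-fold enrichment (chr15:43282262-43282971) with 23 reads (interval 14.6 to 34.5), a −log10 q-value of 9.64 and a summit 28 bp upstream. Eif3b, the center of the b-g-i module, had 6.60-fold enrichment (chr5:140418443-140419365) with 33 reads (interval 22.7 to 46.3), a −log10 q-value of 11.9 and a summit 365 bp upstream that held the motif. Of these 3 genes, the motif was found only at Eif3b, and their read intervals overlapped.

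Among the other 8 bound eIF3 genes, the fold intervals overlapped in every pair but Eif3d and Eif3i. There the lower bound of Eif3d, 4.08, was just above the upper bound of Eif3i, 4.01. Eif3d, which can bind the cap of some mRNAs, had 6.19-fold enrichment, Eif3h 6.10-fold, Eif3j1 5.70-fold, Eif3g 5.44-fold, Eif3f 4.29-fold, Eif3k 4.29-fold and Eif3c 3.60-fold. Eif3i had the lowest value of the complex, 2.51-fold, with 15 reads and a −log10 q-value of 0.793. Its summit lay 98 bp from the start of Tmem234 and 237 bp upstream of Eif3i. Within the octamer core, Eif3l and Eif3m had no promoter peak, and their nearest summits lay 12265 and 5172 bp away. Eif3j1 had 3 promoter peaks while its paralog Eif3j2 had none, and the nearest summit to Eif3j2, at 172569 bp, was the most distant of any member.

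The factors of eIF4F and its cofactors recognize the cap and unwind the mRNA leader, and 9 of their 11 genes were bound with a median of 5.46-fold. These genes held 30 of the 88 promoter peaks, a count not corrected for the number of starts searched. Eif4g1 had 23 annotated starts, Eif4a2 20 and Eif4g2 14, against a median of 4.5 over all members. The RNA helicase subunits were the strongest. Eif4a2 had 10.3-fold enrichment over a peak of 3958 bp (chr16:23105967-23109924), the widest among the members, with 54 reads (interval 40.6 to 70.5), a −log10 q-value of 27.4 and a summit 113 bp downstream of the start. Eif4a1 had 9.51-fold enrichment (chr11:69669947-69673040) with 40 reads (interval 28.6 to 54.5), a −log10 q-value of 19.5 and a summit 56 bp upstream of the nearest start, within an intron of a longer transcript. The read intervals of the 2 helicases overlapped, and neither strongest summit held the motif. Eif4h, which stimulates the helicase, had 7.31-fold enrichment (chr5:134638800-134639334) with 36 reads (interval 25.2 to 49.8), a −log10 q-value of 14.0 and a summit 126 bp downstream of the start. Eif4b, with the same role, had 5.25-fold enrichment.

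The 3 scaffold genes were bound, Eif4g3 at 5.89-fold, Eif4g1 at 5.46-fold and Eif4g2 at 4.81-fold. Eif4g2 encodes DAP5, a scaffold without the site for eIF4E, and had 9 promoter peaks over 14 annotated starts, the most of any member. Its peaks ranged from 3.32-fold to 4.81-fold. Eif4g1 had 4 promoter peaks over 23 starts. Of the 4 genes for cap-binding proteins, Eif4e had 4 promoter peaks, the strongest of 5.28-fold with 33 reads at 9 bp from a start, and Eif4e2, a cap-binding repressor, had a strongest peak of 3.15-fold with 11 reads at 2567 bp. A further peak of Eif4e2 lay 93 bp upstream of the start with 2.99-fold enrichment and 22 reads. Eif4e3 and the germline form Eif4e1b had no promoter peak, and their nearest summits lay 10645 and 89913 bp away.

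Proteins that hold back eIF4E were bound in 3 of 4 cases, with 1 gene above the others by fold enrichment. Eif4ebp1, the mTOR-regulated 4E-BP1, had 8.14-fold enrichment (chr8:27260345-27262058) with 41 reads (interval 29.4 to 55.6), a −log10 q-value of 17.6 and a summit 552 bp downstream of the start in an intron. Its read interval did not overlap that of Eif4ebp2, which had 3.52-fold enrichment (chr10:61452085-61452429) with 14 reads (interval 7.65 to 23.5), a −log10 q-value of 1.99 and a summit 520 bp downstream. Eif4enif1 encodes the transporter 4E-T. It had 2.92-fold enrichment (chr11:3203485-3203965) with 22 reads (interval 13.8 to 33.3), a −log10 q-value of 2.08 and a summit 174 bp downstream of a start. Eif4ebp3 had no promoter peak, had no CpG-rich promoter, and lay 5677 bp from the nearest summit.

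The strongest peaks of both genes of subunit joining had near equal fold enrichment and lay away from the start, but both genes also had peaks nearer to it. Eif5, the protein that triggers GTP hydrolysis by eIF2, had 6.47-fold enrichment (chr12:111535172-111535761) with 24 reads (interval 15.4 to 35.7), a −log10 q-value of 8.89 and a summit 2676 bp upstream. Eif5b, the GTPase that joins the large subunit, had 6.49-fold enrichment (chr1:37996182-37997070) with 24 reads (interval 15.4 to 35.7), a −log10 q-value of 8.92 and a summit 1461 bp upstream. The Eif5b summit was 109 bp from a start of the neighbor Txndc9, in an untranslated exon of that gene. A further Eif5b peak of 5.64-fold lay 163 bp upstream of its start, but 46 bp from a start of Txndc9 and again in an untranslated exon of Txndc9, and a peak of 5.98-fold lay 1615 bp downstream in an intron of Eif5b. Closer to its start, Eif5 had peaks of 3.12-fold at 58 bp and 2.72-fold at 88 bp.

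Eif5a, whose hypusine-modified product acts mostly in elongation, had 5 promoter peaks, while its paralog Eif5a2 had none. The strongest (chr11:69919028-69920643) reached 6.97-fold with 44 reads (interval 32.0 to 59.1) and a −log10 q-value of 15.9, in an intron 618 bp downstream of a start. Of the other 4, the 2 farthest from a start were nearest to Gps2. For Eif5a2 a peak of 7.03-fold with 31 reads lay 5617 bp away, outside the window. Eif4a3 encodes a helicase of the exon junction complex. It had 4.19-fold enrichment (chr11:119299835-119300823) with 17 reads (interval 9.90 to 27.2), a −log10 q-value of 3.91 and a summit 141 bp upstream. Eif6, which keeps the large subunit from joining early, had 2.82-fold enrichment (chr2:155826014-155826829) with 17 reads (interval 9.90 to 27.2), a −log10 q-value of 1.69 and a summit 22 bp upstream of a start. The intervals of Eif4a3 and Eif6 overlapped, and neither summit held the motif.

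Several factor families thus had bound and unbound paralogs. Eif1, Eif3j1, Eif5a, Eif4e with Eif4e2, and Eif4ebp1 with Eif4ebp2 had promoter peaks, whereas Eif1b, Eif3j2, Eif5a2, Eif4e3 with Eif4e1b, and Eif4ebp3 had none. Of the 11 unbound members, 8 had CpG-rich promoters, and their promoter windows had a median of 6260 bp against 10900 bp for bound members. The nearest summit lay at a median of 26429 bp, within 10 kb for 3 genes and beyond 50 kb for another 3. The authors discarded reads of low mapping quality, so sequence shared between near-identical copies can lose reads, and its part in these contrasts was not tested.

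**Figure D4:**
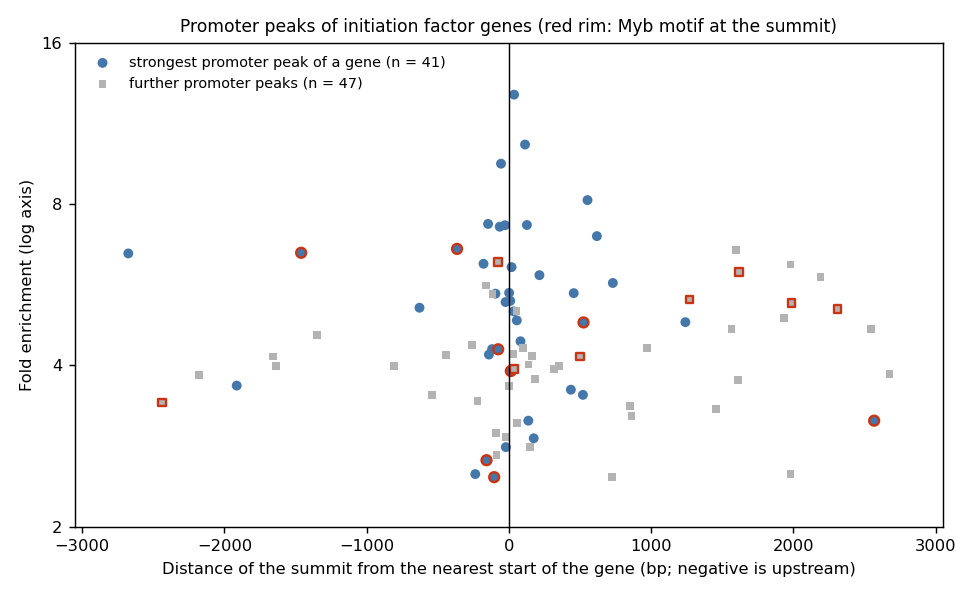
Fold enrichment (y axis, log scale) against the distance of the summit from the nearest start of the gene (x axis, bp, upstream negative) for the strongest promoter peak of each of the 41 bound members (blue circles) and their 47 further promoter peaks (gray squares), with a red rim where the Myb motif lay within 50 bp. The peaks above 8-fold all lie within 552 bp of a start, while Eif5 (6.47-fold, 2676 bp upstream) and Eif5b (6.49-fold, 1461 bp upstream) stand out at a distance.

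Where the summits fell in the gene models varied. By GENCODE vM21, 15 of the 41 strongest summits lay outside the member itself, 11 in an intron, 10 in an untranslated exon, 4 in a coding exon and 1 in an exon of a non-coding transcript. For 37 of 41 (90.2%) the nearest protein-coding start was that of the member, against 85.4% over all bound genes, and the exceptions were Eif1ad, Eif2b4, Eif3i and Eif5b. A start of another protein-coding gene lay within 3 kb of 10 of the 41 summits (24.4%, against 28.7%), so those peaks cannot be ascribed to the initiation factor alone. Besides these exceptions, they were Eif1a (with Tmed7), Eif2s1 (Atp6v1d), Eif2a (Serp1), Eif2b1 (Gtf2h3), Eif3k (Map4k1) and Eif4a1 (Senp3). In 22 of 41 bound members there were 2 or more promoter peaks (53.7%, against 45.1%).

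Other motif letters were counted at the same summits. ETS letters (CCGGAA) were present at 5 of 41 strongest summits (12.2%, against 7.21% over all bound genes), E-boxes (CACGTG) at 2 (4.88%, against 2.38%), the NRF1 form (GCATGCGC) at 1 (2.44%, against 0.672%) and the CREB form (TGACGTCA) at none, against 0.498%. CCAAT, the NFY element, was present at 9.76% against 10.4%, and GGGCGG, the SP/KLF element, at 14.6% against 14.2%. The intervals on the members' shares were wide and held the share of all bound genes for each of these motifs. In the RefSeq promoter table (GRCm38), which covers the bases just before and after each start, 40 of the 52 members were matched with 53 promoters. The Myb motif was found in 24.5% of them, compared with 23.5% of promoters of genes with a CpG-rich promoter and 28.3% of all promoters. The ETS letters were found in 47.2%, compared with 28.8% and 14.9%, and the E-box in 22.6%, compared with 10.6% and 7.15%. The NFY element was less frequent, at 28.3% compared with 37.1% and 37.4%. The CREB form was found in none, compared with 3.38% and 1.79%. The SP/KLF element was at 69.8%, compared with 69.1% and 35.7%, and the NRF1 form at 5.66%, compared with 6.01% and 2.71%. No interval was computed on these shares, and some genes had more than 1 promoter. Unlike the summit windows, these promoters include those of unbound members. The Myb letters occurred in 1 of 8 promoters of unbound members and 12 of 45 of bound members. For ETS the counts were 6 of 8 and 19 of 45, for NFY 4 of 8 and 11 of 45, and for the E-box 2 of 8 and 10 of 45, so that the shares of these were higher in unbound members, though over 8 promoters only.

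Other genes of translation were counted by the same rule, and together 122 of 141 were bound (86.5%), beside 41.4% of all autosomal protein-coding genes and 65.0% of those with a CpG-rich promoter. Without the ribosomal proteins the count was 51 of 69 (73.9%). All but 1 of the 72 autosomal genes of cytosolic ribosomal proteins were bound (71 of 72, 98.6%, with Rps16 as the exception), at a median of 5.12-fold. Regulators of initiation were bound in 23 of 25 cases (92%) and elongation factors and their modifiers in 9 of 13 (69.2%). The list of transfer RNA synthetases, with Aimp1 and Aimp2, was bound in 14 of 22 (63.6%). Release and recycling factors were bound in 4 of 7 (57.1%) and mitochondrial initiation factors in 1 of 2. As whole lists, the synthetase list and the release and recycling list lay below the 65.0% of genes with a CpG-rich promoter. The synthetase list also holds genes without such a promoter, and of its 16 genes with one, 11 were bound. It includes Aimp1 and Aimp2, which are not synthetases and were both unbound, so its share is not that of synthetases alone. In the release and recycling list the release factors Etf1 and Gspt1 were bound, and the unbound genes were Denr, Hbs1l and Mcts2. All 7 release and recycling genes had a CpG-rich promoter. The initiation factors, at 78.8%, lay between the ribosomal proteins and the elongation factors, and their median of 5.25-fold was close to that of the ribosomal proteins.

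Of these 122 genes, 4 had higher fold enrichment than any initiation factor. They were Vars, the valyl-tRNA synthetase, at 17.2-fold with 69 reads (interval 53.7 to 87.3), Eef2k, the kinase of the elongation factor eEF2, at 15.6-fold with 60 reads (interval 45.8 to 77.2), Ddit3, a transcription factor of the stress response downstream of eIF2 alpha, at 15.0-fold, and Mknk2, which phosphorylates eIF4E, at 14.2-fold, the last pair with 64 reads each. The read intervals of all 4 overlapped that of Eif1ad. After Eef2k, the next elongation factor gene was Eef1b2 at 9.37-fold, where the start of Ndufs1 was nearer, and after Vars the next synthetase gene was Mars at 8.34-fold. In the remaining lists the highest values were 10.8-fold at Rps9 and 10.1-fold at Rps14 for ribosomal proteins, 7.18-fold at Etf1 and 5.87-fold at Gspt1 for release factors, and 5.46-fold at Mtif2 for mitochondrial initiation.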

How the data were processed

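Myb ChIP-Seq of WT Lin- bone marrow cells was analysed from the peak list of 1 library (2 samples in all, the other being the IgG background, whose own signal was not used here). Per the submitters' processing notes and the methods, adapter trimming used cutadapt 1.15, alignment to mm10 BWA 0.7.13 and duplicate removal Picard. The authors called narrow peaks with MACS2 2.1.1.20160309 against IgG, keeping peaks shared between pseudo-replicates, which are random subsets of 1 library. The deposited fold enrichment is the ratio of scaled Myb pileup to local background at the summit, with 1 added to each. The list also gives the −log10 p-value and −log10 q-value that the authors deposited for each peak. A score column, also deposited, was not used. All deposited peaks were used, including those with q above 0.05, and the highest fold enrichment decided which promoter peak of a gene was the strongest.

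Read depth is not given in the list. Reads at each summit were recovered from fold enrichment and p-value with a pileup scale of 0.769, which gave whole reads within 0.005 reads for 100% of the peaks. In 1.09% more than 1 solution existed and the closest was used. Reads at summits are given before this scaling, whereas backgrounds are in scaled reads, so dividing one by the other does not give the fold enrichment. The genome-wide background was 1.46 scaled reads. The median peak in the list had 18 reads, so intervals are wide. Read intervals are exact Poisson 95% and share intervals Clopper-Pearson 95%. Fold intervals were derived from the read intervals with the local background held fixed. The scripts were tested on simulated data and used Python 3.11.15, numpy 2.4.6, pandas 2.3.3, scipy 1.17.1 and matplotlib 3.10.9.

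Summits were assigned to transcript starts of GENCODE vM21 (mm10, positions counted from 1). Sequences came from the GRCm38 genome, and RefSeq promoters from a RefSeq table. The members, complexes, lists and motifs were chosen with earlier results of these data known. Full values are given for the 3 strongest peaks with q of at most 0.05 of each complex and the 10 strongest of all. The 2 strongest genes of each other list are named with their fold enrichment, and further members are given in part. With 1 library no p-value was computed. Alternatives covered q-value, window, choice of start, choice of peak and motif form.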

Additional observations from a re-analysis of the deposited data

How the results depend on the processing

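The count of 41 bound members fell to 27 where the −log10 q-value had to reach 5, which removes weak peaks by construction. It lay between 35 and 41 with the threshold set at a q-value of 0.05 or at a −log10 q-value of 2, with windows of 1 kb or 500 bp, and with other choices of start or overlap. The eIF3 count of 11 lay between 8 and 11, and the count of 122 for the other lists between 89 and 122. The median of 5.25-fold lay between 4.31 and 6.10. The motif share of 19.5% rose to 53.7% with the looser letters AACNG, which match more sequence by construction (51.1% over all bound genes). With windows of 25 bp it was 17.1% against 8.02% over all bound genes, with windows of 100 bp 26.8% against 27.2%, and among peaks whose −log10 q-value reached 5 it was 11.1% against 16.7%, so the order of members and other bound genes depended on the setting. No paired analysis was possible because there was 1 Myb library. Depth limits the ranking of members: 15 of 41 strongest peaks had fewer than 20 reads.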

Other observations

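Peaks inside the members but more than 3 kb from any start numbered 13, in 11 genes. The strongest lay in Eif3h (chr15:51828463-51829381), 7248 bp from the nearest start, with 12.6-fold enrichment, 50 reads (interval 37.1 to 65.9) and a −log10 q-value of 29.8. It exceeded the promoter peak of the same gene, which had 6.10-fold enrichment and 19 reads (interval 11.4 to 29.7), and the read intervals did not overlap. Eif5b held a peak of 7.59-fold with 23 reads, 13486 bp from a start, and Eif4ebp1 a peak of 5.46-fold with 20 reads, 6621 bp from a start. A peak of 5.44-fold in Eif2ak1 was nearer to the start of Ankrd61. Eif4e3, with no promoter peak, held 1 peak of 4.09-fold with 12 reads at 10645 bp. Of the 13 peaks, the Myb motif was present at the weaker peak of Eif3h and at 1 peak of Eif4g3.

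Genes with an Eif symbol outside the rule were few. On the X chromosome, Eif2s3x, the gamma subunit of eIF2, had 2 promoter peaks, the stronger of 3.54-fold with 11 reads (interval 5.49 to 19.7) and a −log10 q-value of 1.75 at 780 bp upstream of a start, and Eif1ax had none. The Y-linked Eif2s3y had none. None of 11 entries annotated as pseudogenes or as non-coding RNA had a promoter peak.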
